A study of Mus musculus with 8 samples.

Results

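Circadian clock genes were followed in mouse soleus, a slow hindlimb muscle. The set was the 10 genes Arntl, Clock, Per1, Per2, Per3, Cry2, Nr1d1, Nr1d2, Dbp and Bhlhe40, chosen by name, and all 10 were found among the 24033 genes of the deposited table. RNA was sequenced from soleus of 4 MyoCre mice (genotype Myogenin-Cre/+) and 4 K15-SKO mice (genotype Myogenin-Cre/+;K15F/F), all 2 months old. Both groups carry Cre recombinase on 1 allele, driven from the myogenin gene of the muscle lineage, and only K15-SKO mice also carry floxed alleles of Klf15, a Kruppel-like transcription factor. Cells outside that lineage keep Klf15. The labels used here say nothing of the time of day of collection, the lighting schedule or the sex of the mice. Values are FPKM, fragments scaled by transcript length and by library depth, and the libraries are called by genotype and replicate number.

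The circadian clock is a feedback loop of transcription that runs in nearly every cell, muscle fibres included. The proteins of Arntl (BMAL1) and Clock pair and activate genes through E-box sequences, among them the Per and Cry genes, whose proteins return to block the pair, and Nr1d1, Nr1d2, Dbp and Bhlhe40. NR1D1 and NR1D2 (REV-ERB alpha and beta) repress Arntl through ROR elements, while DBP activates Per genes through D-boxes. The activator Arntl and the Per and Dbp transcripts therefore peak at opposite times of day, with the REV-ERB transcripts ahead of the Per transcripts.

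These elements can be read in the RefSeq start regions (GRCm38.p6, 250 bases before to 50 after a start), which were present for 8 of the 10 genes, Per2 and Bhlhe40 being the others. The windows below are shown because they hold letters that match these elements. A match of letters does not show that a site is bound or used. Capitals mark an E-box or D-box in Per1 (chr11:69098763-69098941, plus strand), D-boxes in Per3 (chr4:151044805-151044885, minus strand), a ROR element in Arntl (chr7:113207529-113207558, plus strand), and E-boxes in Ciart, a further clock repressor (chr3:95882261-95882354, minus strand), and in Klf15 itself (chr6:90462336-90462420, plus strand).
Per1: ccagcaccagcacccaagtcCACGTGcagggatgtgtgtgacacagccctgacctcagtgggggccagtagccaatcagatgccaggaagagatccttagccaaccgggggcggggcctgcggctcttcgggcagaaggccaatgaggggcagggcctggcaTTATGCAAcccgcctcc
Per3: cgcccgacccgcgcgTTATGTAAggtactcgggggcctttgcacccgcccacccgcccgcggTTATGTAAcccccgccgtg
Arntl: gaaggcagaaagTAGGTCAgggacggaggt
Ciart: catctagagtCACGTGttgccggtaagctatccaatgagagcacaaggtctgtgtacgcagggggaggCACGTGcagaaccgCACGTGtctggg
Klf15: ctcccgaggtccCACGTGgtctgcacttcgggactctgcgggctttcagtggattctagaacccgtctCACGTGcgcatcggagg
The motifs searched, on both strands, were the E-box CACGTG, its variant AACGTG, the D-boxes TTATGTAA and TTATGCAA, and the ROR elements TAGGTCA and TGGGTCA. They occur in 7.15%, 4.68%, 1.66% and 6.45% of all 32851 start regions. In Per1 the E-box lay 166 bases and the D-box 24 bases before a RefSeq start that is inside the annotated gene (chr11:69095217-69109960, plus strand, mm10). Per3 held D-boxes 205 and 158 bases before its start, and the Arntl element lay 30 bases after the later of its 2 starts. Klf15 held E-boxes 228, 172 and 3 bases before its start, of which the first 2 are in the window shown, and Ciart 116, 58 and 44 bases before. Cry2 and Nr1d1 held the E-box variant. No motif of the 4 kinds lay in the windows of Clock, Nr1d2 and Dbp, which says only that these letters are not in those 300 bases.

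Klf15 itself was lower in the K15-SKO mice. Its FPKM was 44.5, 49.8, 49.1 and 22.8 in MyoCre replicates 1 to 4 and 15.7, 19.3, 16.7 and 13.1 in K15-SKO replicates 1 to 4, the order used throughout. No K15-SKO library reached the lowest MyoCre library. Klf15 thus fell by 1.28 on the log2 scale (SE 0.25, limma adjusted p = 0.0315), and this call ended in 12 of 19 alternative fits, with adjusted p-values up to 0.268. Among them were the fits without MyoCre replicate 1, 2 or 3 (adjusted p = 0.123, 0.0855 and 0.199) and without K15-SKO replicate 1, 3 or 4 (0.0939, 0.152 and 0.0534). Slow fibre markers were abundant in every library. Myl2 and Tnnc1, of the contractile apparatus, averaged 4918 and 1721 FPKM for MyoCre and 4776 and 1436 FPKM for K15-SKO. Summed over 6 slow markers, the level was lowest in K15-SKO replicate 3 (7510 FPKM), MyoCre replicate 4 (8080 FPKM) and K15-SKO replicate 4 (9240 FPKM). The remaining libraries lay between 10800 FPKM (MyoCre replicate 2) and 15200 FPKM (K15-SKO replicate 2). The part of this spread in the clock gene levels was not tested. K15-SKO replicate 3 stood apart, with a median correlation of 0.896 to the other libraries against 0.906 to 0.925 for the rest. Its factor by median-of-ratios scaling, which sets libraries to a common level, was 0.801 against 0.967 to 1.16, and its summed erythroid markers, 5 of 5 detected, were 2030 FPKM against 284 to 459 FPKM in MyoCre and 320 to 577 FPKM in the other K15-SKO libraries. The part of these in the results for that library was not tested. Markers of endothelial cells (86.9 to 107 FPKM summed in MyoCre, 102 to 144 in K15-SKO), fibroblasts (509 to 906, 379 to 660), macrophages (47.9 to 59.9, 24.9 to 54.6), adipocytes (10.2 to 16.6, 4.08 to 14.6) and Schwann cells (54.7 to 59.9, 45.6 to 62.3) overlapped between genotypes in their sums, and 0 of these genes were called, against 0.550% of all tested genes. The endothelial gene Cdh5, picked out after its values were seen, did not overlap (at most 27.1 FPKM in MyoCre, at least 29.1 FPKM in K15-SKO, limma adjusted p = 0.948). All 5 endothelial fold changes were positive, and all 5 of the fibroblast and all 5 of the macrophage list were negative. In whole muscle, fewer cells of a type and less RNA per cell cannot be told apart. MyoCre replicate 2 alone had Y-linked Ddx3y (23.0 FPKM, 0 elsewhere), and it alone nearly lacked X-linked Xist (0.0103 FPKM, 21.0 to 50.3 FPKM elsewhere). By these genes that mouse was male and all others female, so the sexes were not balanced between the genotypes. The part of sex in the results was not tested.

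None of the 10 clock genes differed between the genotypes past the threshold. The test was limma's moderated test of log2(FPKM + 0.5) with Benjamini-Hochberg adjustment over 12535 genes at 0.05, and all 10 genes passed the filter of a mean of at least 1 FPKM. It called 0 of the 10, with adjusted p-values from 0.922 to 0.996, where it called 0.550% of all tested genes (0.183% lower and 0.367% higher in K15-SKO). The number called over all genes, 69, was 12 of 12376 without genes listed at 0 throughout a genotype, 3 with median-of-ratios scaling as well, and 157 with library weights. At an unadjusted p under 0.05 it took 1 of the 10, Bhlhe40, which was lower in K15-SKO muscle, against 4.33% of all genes in both directions and 3.43% lower. With median-of-ratios scaling, quantile normalization or library weights, and without MyoCre replicate 1, MyoCre replicate 3 or K15-SKO replicate 2, it took 0 of the 10. In each of the 10 genes the libraries of the genotypes overlapped, whereas 3.35% of all tested genes had no overlap. The fold change was negative for 8 of the 10 genes, as it was for 77.0% of all genes, and the median over the 10 was -0.09 against -0.12 over all genes. With median-of-ratios scaling, which moved the median of all genes to 0.00, 4 of the 10 were negative. Leaving out any 1 library also gave 0 calls.

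**Figure D1:**
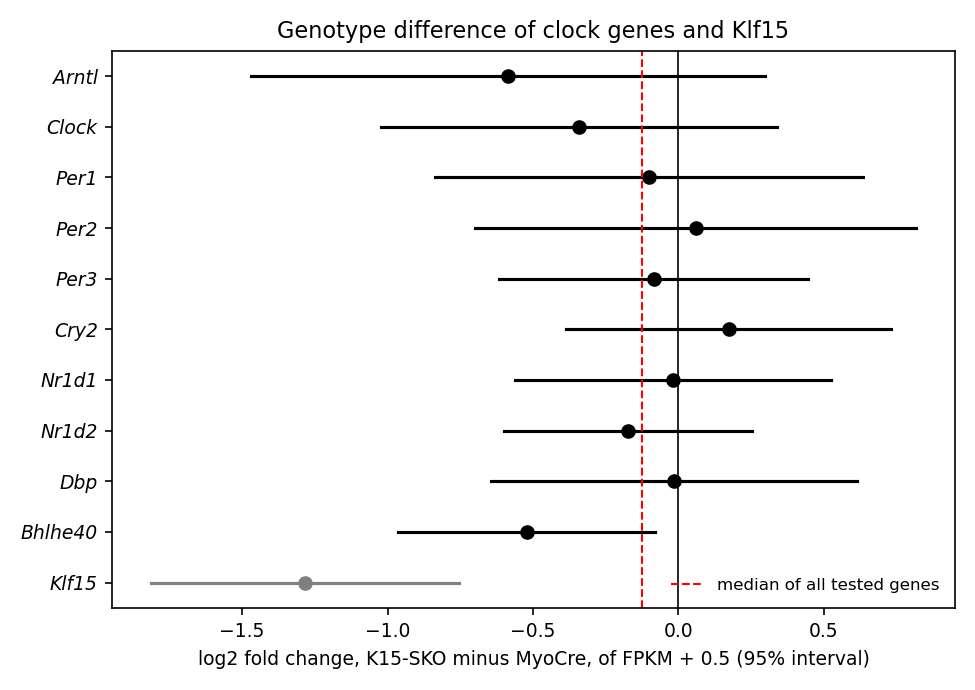
Log2 fold change (K15-SKO minus MyoCre, of FPKM + 0.5) of each clock gene and of Klf15 on the horizontal axis, with its 95% interval from limma; the dashed line is the median of all tested genes. The intervals of 9 clock genes include 0, that of Bhlhe40 runs from -0.96 to -0.08, and that of Klf15 from -1.81 to -0.75.

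Of the activators, Arntl (chr7:113207465-113314126, plus strand, mm10) measured 5.39, 6.34, 8.82 and 8.79 FPKM across MyoCre mice, against 5.78, 7.67, 1.54 and 6.06 FPKM across K15-SKO mice. Of all 8 libraries, K15-SKO replicate 3 was the lowest, and the other K15-SKO libraries lay within the MyoCre range. The MyoCre mean of 7.33 ± 1.74 FPKM and the K15-SKO mean of 5.26 ± 2.62 FPKM (SD, n = 4 each) gave a log2 fold change of -0.59 with a 95% interval from -1.47 to 0.30 (SE 0.40, limma adjusted p = 0.957). Without K15-SKO replicate 3 it was -0.14. Clock (chr5:76209868-76304792, minus strand), the partner of Arntl, measured 11.0, 11.4, 14.3 and 18.8 FPKM across MyoCre mice, against 11.2, 13.4, 5.03 and 16.3 FPKM across K15-SKO mice. Again the lowest library was K15-SKO replicate 3, and the replicate 4 library was the highest of each genotype. Clock changed by -0.34 on the log2 scale (SE 0.31, limma adjusted p = 0.957), or by -0.01 without K15-SKO replicate 3.

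The 3 Per genes encode the repressors that close the loop. Per1, which glucocorticoids also induce, measured 7.01, 9.04, 14.0 and 6.67 FPKM across MyoCre mice, against 8.90, 6.99, 15.5 and 4.51 FPKM across K15-SKO mice. The replicate 3 library was the highest and the replicate 4 library the lowest in both genotypes. The summed level of 8 other glucocorticoid-induced genes was also highest in K15-SKO replicate 3 (482 FPKM) and MyoCre replicate 3 (422 FPKM) and lowest in K15-SKO replicate 4 (198 FPKM), K15-SKO replicate 1 (207 FPKM) and MyoCre replicate 4 (212 FPKM). Mt1 alone made 198 FPKM of the sum in K15-SKO replicate 3, and the 8 genes did not move as a set. Sgk1, Ddit4, Mt1 and Mt2 were highest in K15-SKO replicate 3, and Tsc22d3 and Cebpd in MyoCre replicate 3. Fkbp5 and Zbtb16 were highest in K15-SKO replicate 2 (24.0 and 38.9 FPKM), against 9.34 and 22.2 FPKM in K15-SKO replicate 3. The part of these 8 genes in the level of Per1 was not tested. Per2 (chr1:91415982-91459324, minus strand) was the least abundant of the 10 genes, with 1.26, 2.45, 2.68 and 0.829 FPKM across MyoCre mice, against 2.27, 1.24, 3.24 and 0.937 FPKM across K15-SKO mice. Its order over the libraries was close to that of Per1, with K15-SKO replicate 3 on top, but its lowest library was MyoCre replicate 4 and that of Per1 K15-SKO replicate 4. Per3 (chr4:151003652-151044665, minus strand) measured 7.30, 5.75, 8.30 and 5.03 FPKM across MyoCre mice, against 7.32, 4.25, 9.25 and 4.67 FPKM across K15-SKO mice, with both replicate 3 libraries highest. The log2 fold changes of Per1, Per2 and Per3 were -0.10, 0.06 and -0.09, with 95% intervals of -0.84 to 0.63, -0.70 to 0.82 and -0.62 to 0.45. These intervals leave room for differences of more than 1.5-fold in either direction for Per1 and Per2.

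Cry2 (chr2:92403646-92434043, minus strand), a cryptochrome that represses together with the Per proteins, measured 10.6, 11.0, 11.9 and 5.36 FPKM across MyoCre mice, against 11.1, 11.1, 13.9 and 7.21 FPKM across K15-SKO mice. The replicate 4 libraries of both genotypes were set below the other 6, which lay between 10.6 and 13.9 FPKM. On the log2 scale the difference was 0.17 (SE 0.26, limma adjusted p = 0.957).

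**Figure D2:**
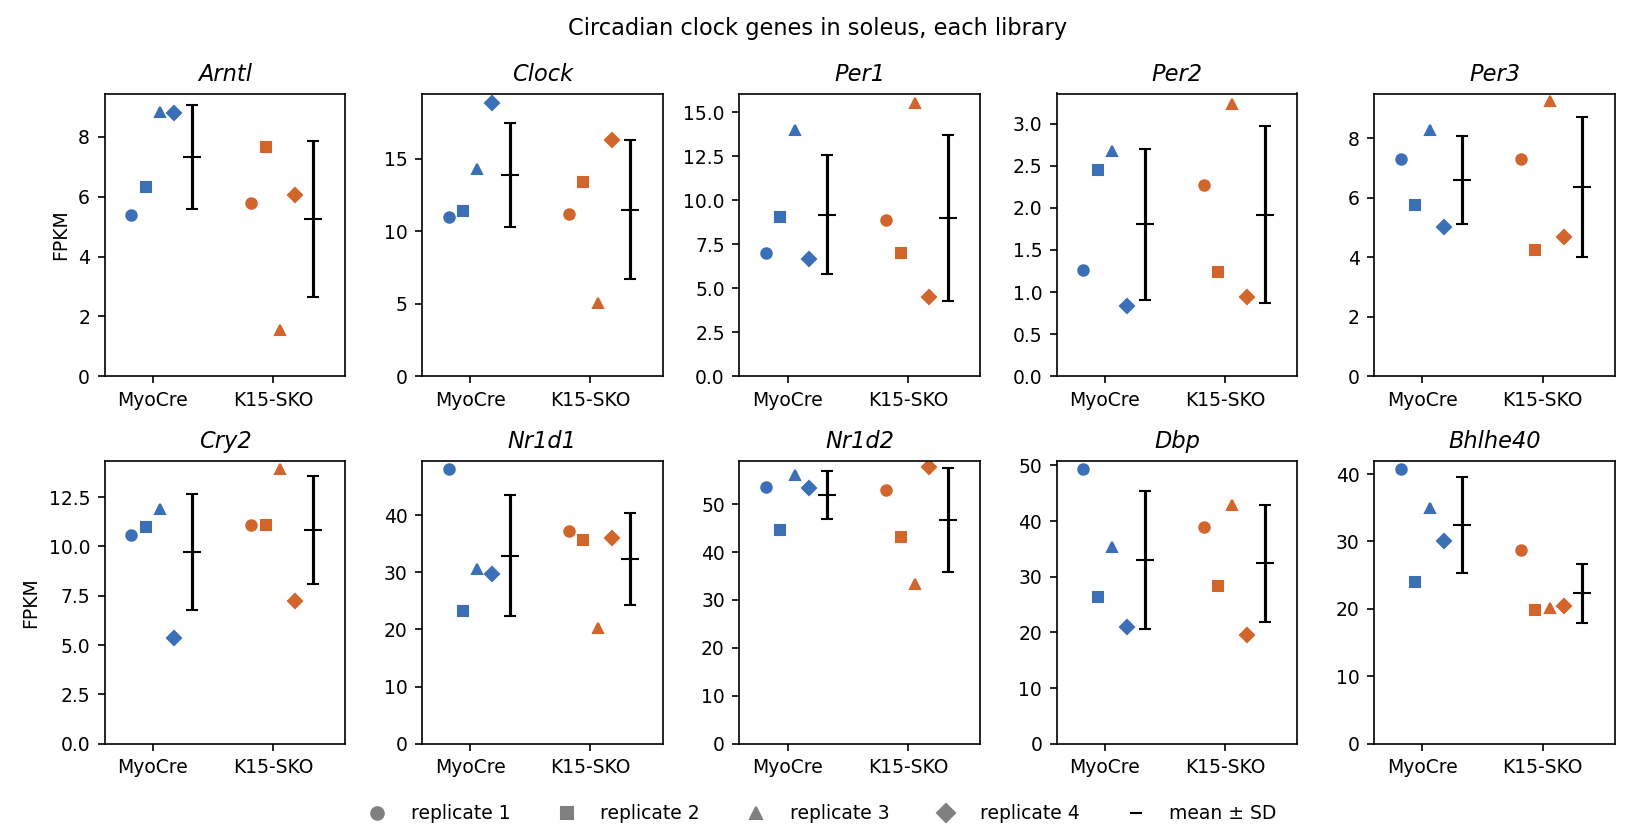
FPKM (vertical axis, from 0) of each clock gene in each of the 8 libraries by genotype; marker shapes give the replicate number and the bars the mean ± SD of 4 mice. The genotypes overlap in every panel, and K15-SKO replicate 3 (orange triangle) is lowest for Arntl and Clock and highest for Per1, Per2, Per3 and Cry2.

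The REV-ERB genes, repressors of Arntl, were among the most abundant of the 10. Nr1d1 (chr11:98767932-98775333, minus strand) measured 48.1, 23.3, 30.6 and 29.7 FPKM across MyoCre mice, against 37.3, 35.6, 20.3 and 36.0 FPKM across K15-SKO mice, and the 2 genotypes had nearly the same mean, 32.9 ± 10.6 and 32.3 ± 8.04 FPKM (SD, n = 4 each). MyoCre replicate 1 was the highest library and K15-SKO replicate 3 the lowest. Nr1d2 (chr14:18204054-18239127, minus strand) measured 53.6, 44.6, 56.0 and 53.3 FPKM across MyoCre mice, against 52.9, 43.1, 33.3 and 57.8 FPKM across K15-SKO mice, so 7 libraries lay between 43.1 and 57.8 FPKM. After median-of-ratios scaling, Nr1d2 in K15-SKO replicate 3 was 41.6 and no longer the lowest, and Nr1d1 was lowest in MyoCre replicate 2. The log2 fold changes were -0.02 for Nr1d1 and -0.17 for Nr1d2 (limma adjusted p = 0.993 and 0.957). Exons of Nr1d1 share 263 bases with Thra, a thyroid hormone receptor gene on the opposite strand, and with no strand setting given, reads of that stretch cannot be assigned to either gene. Thra measured 19.1 ± 4.72 and 17.2 ± 3.55 FPKM (SD, n = 4 each).

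Dbp (chr7:45705088-45710203, plus strand), a transcription factor that reads out the clock, measured 49.3, 26.4, 35.3 and 21.0 FPKM across MyoCre mice, against 38.9, 28.4, 42.8 and 19.5 FPKM across K15-SKO mice. The replicate 4 libraries were the lowest of both genotypes, below all other 6. The means were 33.0 ± 12.4 and 32.4 ± 10.5 FPKM (SD, n = 4 each) and the log2 fold change -0.02 (SE 0.29, limma adjusted p = 0.996, 95% interval -0.65 to 0.62). Its exons share 539 bases with Sphk2 on the opposite strand, a sphingosine kinase gene of 5.72 ± 0.69 and 3.88 ± 0.70 FPKM (limma adjusted p = 0.779). Bhlhe40 (DEC1, chr6:108660629-108666925, plus strand), a repressor of E-box genes that hypoxia and other stimuli also induce, measured 40.8, 24.0, 35.0 and 30.0 FPKM across MyoCre mice, against 28.8, 19.8, 20.1 and 20.5 FPKM across K15-SKO mice. Of the K15-SKO libraries, 3 lay below all MyoCre libraries and replicate 1 lay above the lowest of them. After median-of-ratios scaling, K15-SKO replicate 3 (25.1) also lay above the lowest MyoCre library, replicate 2 (22.7). The means before scaling were 32.5 ± 7.15 and 22.3 ± 4.34 FPKM (SD, n = 4 each). The log2 fold change of -0.52 (SE 0.21) had the smallest unadjusted p of the 10 genes, 0.0241 by limma, with an adjusted p of 0.922. The summed level of 10 immediate early genes, which respond to handling, was 131 to 173 FPKM in MyoCre and 102 to 127 FPKM in K15-SKO muscle, without overlap before scaling. Median-of-ratios scaling puts K15-SKO replicate 3 (119 FPKM, factor 0.801) above MyoCre replicate 3 (131 FPKM, factor 1.16), so the sums then overlap. Of the listed genes only Btg2 had no overlap by itself, as had 3.35% of all tested genes. The part of these genes in the level of Bhlhe40 was not tested. Exons of Bhlhe40 share 118 bases with an opposite-strand transcript listed at no more than 0.0788 FPKM in any library.

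The activators and the Per genes lay on opposite sides of their means in some libraries and on the same side in others. Each gene was expressed as its deviation from its own mean over the 8 libraries on the log2(FPKM + 0.5) scale, and the deviations of Arntl and Clock and those of Per1, Per2 and Per3 were averaged. K15-SKO replicate 3 enters these means. Its low activators raise the activator deviations of all other libraries, and its high Per genes lower their Per deviations. In K15-SKO replicate 3 the activators lay at -1.40 and the Per genes at 0.71, a gap of 2.10. In MyoCre replicate 4 the activators lay at 0.60 and the Per genes at -0.45, in K15-SKO replicate 4 at 0.25 and -0.62, and in K15-SKO replicate 2 at 0.27 and -0.37. The positive activator values of K15-SKO replicates 2 and 4 thus in part reflect the low values of K15-SKO replicate 3. MyoCre replicate 3 differed, with both the activators (0.41) and the Per genes (0.53) above their means. In MyoCre replicates 1 and 2 and K15-SKO replicate 1, activators lay between -0.11 and 0.03 and Per genes between -0.13 and 0.20. Libraries with low Per levels thus occurred in both genotypes, and the library with the lowest activators was a K15-SKO library. Over the 10 genes, deviations from the genotype mean in MyoCre and K15-SKO replicate 4 had r = 0.91, against 0.68, -0.32 and 0.36 for replicates 3, 2 and 1. These are correlations across genes, which are not independent replicates, and nothing in the labels ties same-numbered mice together.

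**Figure D3:**
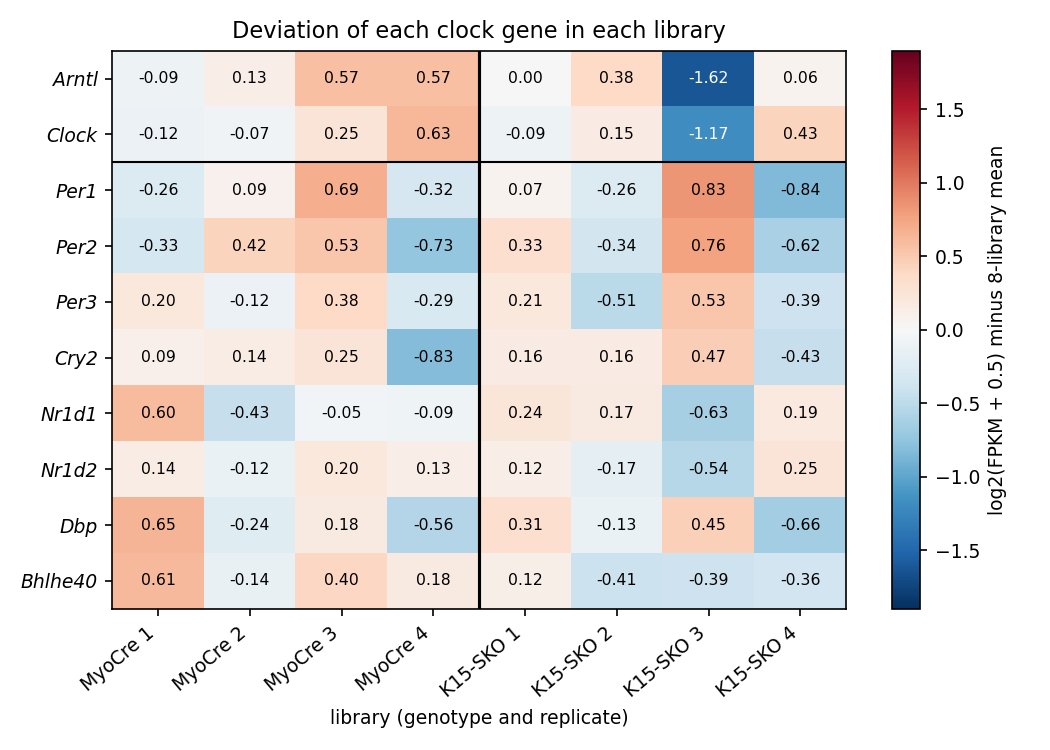
Deviation of each clock gene (rows) in each library (columns) from its own 8-library mean of log2(FPKM + 0.5), with the value printed in the cell; red is above and blue below the mean. The activators Arntl and Clock are above the horizontal line; in K15-SKO replicate 3 they are at -1.62 and -1.17 while Per1, Per2 and Per3 are at 0.83, 0.76 and 0.52.

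The ratio of a target to Arntl within a library hardly depends on how libraries are scaled. The log2 ratio of Dbp to Arntl was 3.08, 1.97, 1.94 and 1.21 in MyoCre and 2.65, 1.82, 4.41 and 1.61 in K15-SKO muscle. K15-SKO replicate 3 was the highest, and the other 3 K15-SKO libraries lay within the MyoCre range. The means of 2.05 ± 0.77 and 2.62 ± 1.27 (SD, n = 4 each) differed by 0.57, less than the spread between mice (two-sided exact permutation test, p = 0.571, adjusted over 2 ratios 0.571). Without K15-SKO replicate 3 the difference was -0.02. The log2 ratio of Nr1d1 to Arntl was 3.04, 1.80, 1.74 and 1.70 in MyoCre and 2.59, 2.15, 3.35 and 2.48 in K15-SKO muscle. All K15-SKO libraries lay above 3 of the MyoCre libraries, and MyoCre replicate 1 lay above 3 of the K15-SKO libraries. The difference of 0.57 gave p = 0.286 in the exact permutation test (adjusted 0.571), where 4 against 4 mice allow no p below 0.0286.

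Across the 8 libraries, Arntl was compared with 6 genes that peak at another time of day. Pearson's r was -0.46 with Per1, -0.51 with Per2, -0.56 with Per3 and -0.48 with Dbp, and 0.48 with Nr1d1 and 0.76 with Nr1d2. Spearman's rho was -0.21, -0.29, -0.36, -0.57, -0.17 and 0.31 in the same order. None passed an exact permutation test, with p from 0.0653 to 0.273 for r and from 0.151 to 0.703 for rho (adjusted over the 6 pairs, 0.273 for every r and 0.703 for every rho). Without K15-SKO replicate 3 and MyoCre replicate 3, the libraries farthest from the median of Arntl, r was -0.09, -0.47, -0.69, -0.62, -0.45 and -0.30. The positive values for Nr1d1 and Nr1d2 thus rested on those libraries, and without K15-SKO replicate 3 alone they were -0.47 and -0.05, with Per1 at 0.37. With all 8 libraries and median-of-ratios scaling, r was -0.69 with Per1, -0.73 with Per2, -0.81 with Per3 and -0.75 with Dbp. For these the exact permutation p adjusted over the 6 pairs was 0.127, 0.0589, 0.0589 and 0.0509. For Nr1d1 and Nr1d2 the scaled r was 0.17 and 0.38 (adjusted exact permutation p = 0.697 and 0.477). In deviations from the genotype means, r with Per1, Per2, Per3, Dbp, Nr1d1 and Nr1d2 was -0.57, -0.54, -0.69, -0.55, 0.52 and 0.72. The unadjusted permutation p ran from 0.0381 (Per3) to 0.188 (Nr1d1), and p adjusted over the 6 pairs from 0.138 to 0.188, so none passed. Centred values were permuted across both genotypes, so these p-values are approximate. Within a genotype, 4 libraries are too few for a correlation.

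All 45 pairs of the 10 genes were also compared, a choice made after the values were seen. Past an adjusted p of 0.05 for r were 2 pairs, both positive. Per1 and Per2 rose and fell together over the mice (r = 0.90, exact permutation p = 0.00122, adjusted 0.0273; rho = 0.98, p = 0.000397, adjusted 0.0179), with r = 0.82 without the 2 libraries farthest from the median of Per1. Per2 and Cry2 gave r = 0.83 (exact permutation p = 0.000273, adjusted 0.0123; rho = 0.88, p = 0.00724, adjusted 0.0964) and r = 0.72 without the 2 libraries farthest from the median of Per2. Arntl and Clock had the highest r, 0.93, with p = 0.00794 and an adjusted exact permutation p of 0.119 (rho = 0.81, p = 0.0218, adjusted 0.140). Without the 2 libraries farthest from the median of Arntl, that r was 0.72. Without K15-SKO replicate 3, no pair passed after adjustment and 6 of 45 passed unadjusted, with r of 0.86 for Per1 and Per2, 0.78 for Per2 and Cry2, and 0.67 for Arntl and Clock.

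With median-of-ratios scaling, 8 of the 45 pairs passed, 4 of them negative. The negative pairs joined an activator with a target. Clock and Cry2 gave r = -0.97 (exact permutation p = 0.00107, adjusted 0.0257; rho = -0.74, p = 0.0458, adjusted 0.188). Clock and Per2 gave r = -0.87 (exact permutation p = 0.00236, adjusted 0.0265; rho = -0.79, p = 0.0279, adjusted 0.180). For Clock and Dbp r was -0.85 (exact permutation p = 0.00372, adjusted 0.0335; rho = -0.83, p = 0.0154, adjusted 0.138), and for Arntl and Dbp -0.75 (p = 0.00848, adjusted 0.0477; rho = -0.71, p = 0.0576, adjusted 0.208). The positive pairs were Per1 with Per2 (r = 0.91), Arntl with Clock (0.88), Per2 with Cry2 (0.86) and Per3 with Dbp (0.84). Without the 2 libraries farthest from the median of the activator, r of the negative pairs was -0.92, -0.60, -0.72 and -0.50. Without K15-SKO replicate 3 it was -0.94, -0.74, -0.76 and -0.62, and 0 of 45 pairs passed after adjustment. Scaling divided that library by 0.801, so its low Arntl and Clock (1.92 and 6.28 after scaling) stayed lowest of the 8, and Per1, Per2, Per3, Cry2 and Dbp (19.4, 4.04, 11.5, 17.4 and 53.4) were all highest there.

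**Figure D4:**
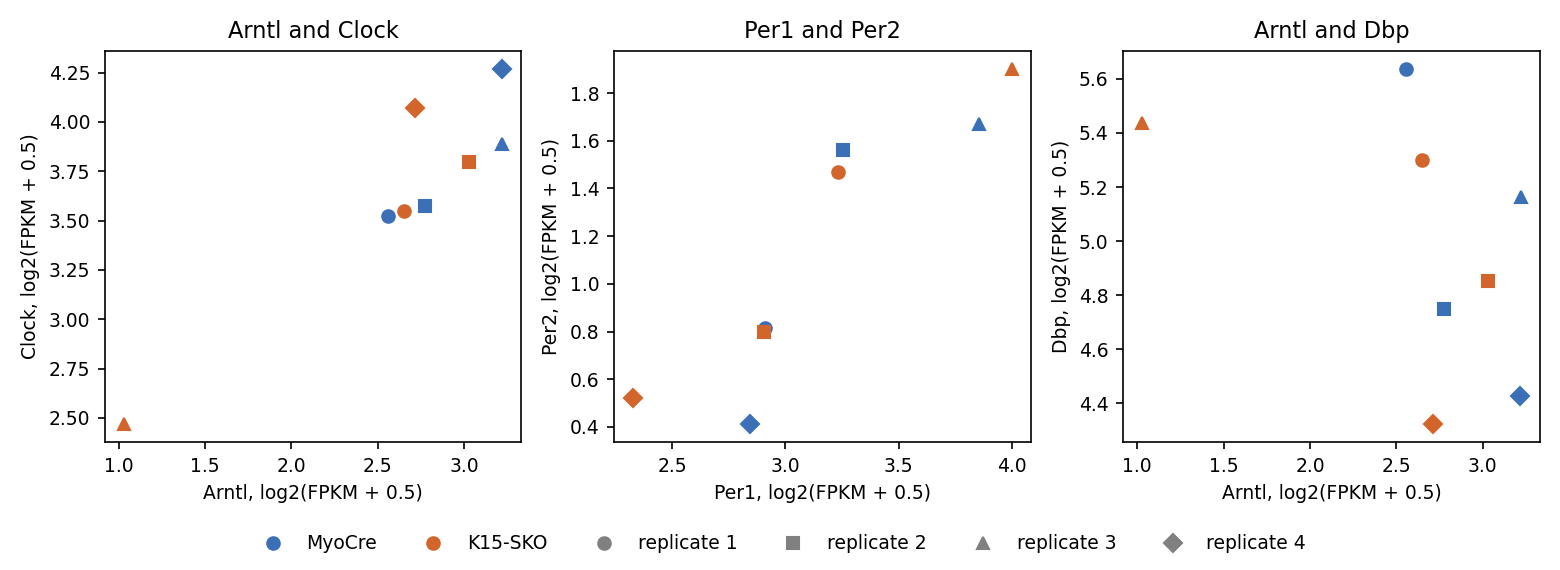
Log2(FPKM + 0.5) of Clock against Arntl, Per2 against Per1, and Dbp against Arntl, before any further scaling, 1 point per library, coloured by genotype and shaped by replicate number. Arntl and Clock (r = 0.93) have K15-SKO replicate 3 far below the rest, Per1 and Per2 (r = 0.90) spread along a line that mixes the genotypes, and Dbp against Arntl has r = -0.48.

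Most of the 10 clock genes varied more among mice of 1 genotype than the median gene did, as did genes of several other lists. The residual SD on the log2(FPKM + 0.5) scale had a median of 0.478 over the 10 genes and 0.291 over all 12535 tested genes. Arntl (0.679, above 96.0% of genes), Per2 (94.9%), Per1 (94.1%), Clock (92.7%) and Dbp (90.8%) stood above 90% of tested genes. For Arntl and Clock a large part of this spread came from K15-SKO replicate 3. It measured 1.54 and 5.03 FPKM there, against 5.39 to 8.82 and 11.0 to 18.8 FPKM in the other libraries, before scaling. Cry2, Nr1d1 and Per3 followed at 84.6%, 81.7% and 79.5%. Bhlhe40 and Nr1d2 lay at 49.3% and 41.3%, near the middle. The median place was 87.7% for the 10 clock genes, 97.4% for erythroid markers and 95.5% for the glucocorticoid-induced list. It was 88.8% for adipocyte markers, 85.8% for immediate early genes, 82.9% for fibroblast markers and 80.1% for slow muscle markers. These places are a description, and the part that library depth or the time of collection plays in them was not tested.

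**Figure D5:**
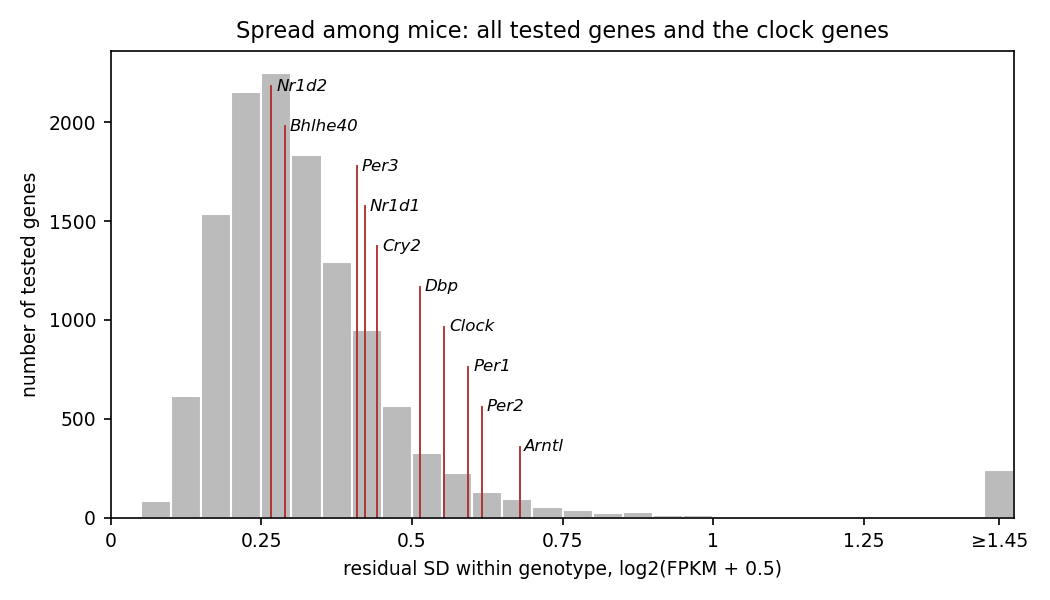
Number of tested genes (vertical axis) by residual SD within genotype of log2(FPKM + 0.5) (horizontal axis; the last bar collects all genes of 1.45 or more), with red lines at the 10 clock genes. The median over all tested genes is 0.291; Nr1d2 and Bhlhe40 sit near it, and the other 8 lie to its right, up to Arntl at 0.679.

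Of 27 other clock genes, 22 passed the filter and 0 were called, where 0.550% of all tested genes were. At an unadjusted p under 0.05 was 1 of the 22, against 4.33% of all genes. The fold changes of 19 of the 22 were negative, against 77.0% of all genes, and those of 12 with median-of-ratios scaling or with library weights. Npas2, which can stand in for Clock, averaged 0.381 FPKM (MyoCre) and 0.272 FPKM (K15-SKO) and was not tested. Rora, an activator of Arntl, measured 20.4 ± 2.42 and 20.4 ± 5.18 FPKM (SD, n = 4 each; limma adjusted p = 0.989). Cry1, the other cryptochrome, was steady, at 3.21 to 4.73 FPKM over the 8 libraries, with a residual SD above only 8.42% of genes. Ciart, the repressor with the E-boxes shown above, measured 5.08, 2.67, 6.0 and 1.61 FPKM across MyoCre mice, against 4.41, 3.07, 6.69 and 2.03 FPKM across K15-SKO mice. Like Dbp, it was lowest in the replicate 4 library of each genotype, and its residual SD lay above 96.2% of genes. Tef, of the same family as Dbp, measured 53.4, 44.5, 59.0 and 37.7 FPKM across MyoCre mice, against 50.0, 44.5, 46.9 and 35.9 FPKM across K15-SKO mice, also lowest in both replicate 4 libraries. Myod1, the myogenic factor that the muscle clock drives, measured 2.46 ± 0.502 and 1.54 ± 0.519 FPKM (SD, n = 4 each). It was the gene with an unadjusted p under 0.05, with a log2 fold change of -0.56 and a limma adjusted p of 0.890. The kinase genes Csnk1d and Csnk1e, whose products mark Per proteins for destruction, had log2 fold changes of -0.14 and -0.20 (limma adjusted p = 0.957 each).

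The 5 genes whose pattern was most like that of Dbp included 1 of the list of clock outputs, Usp2. Over the 8 libraries, and among 7083 genes averaging 5 FPKM or more, the highest Pearson r with Dbp belonged to Obsl1 (0.94), Ubald1 (0.90), Usp2 (0.89), Apod (0.88) and Atp2a1 (0.87). Usp2, a ubiquitin protease gene known as a clock output, measured 44.1, 36.8, 49.4 and 27.6 FPKM across MyoCre mice, against 42.8, 39.5, 51.3 and 29.3 FPKM across K15-SKO mice. It was lowest in both replicate 4 libraries. Tef ranked 19 of 7083 by r with Dbp (0.83) and Tcap, the titin cap gene of the sarcomere, 168 (0.69), while Rora ranked 7060 (-0.83). Other genes of the output list ranked in the middle or at the far end, with Cdkn1a at 3657 (-0.08), Pdk4 at 6293 (-0.57) and Nampt at 6540 (-0.62). Without K15-SKO replicate 3 these values were 0.87 for Usp2, 0.88 for Tef, 0.68 for Tcap and -0.90 for Rora. The genes most like Arntl were Zscan26, Eif3m, Rbx1, Slc35a1 and Uqcrc2, with r from 0.98 to 1.00, each lowest in K15-SKO replicate 3. Without that library their r was 0.97, 0.95, 0.94, 0.89 and 0.88. The genes most like Dbp and Arntl were picked by r over all 8 libraries, so r without 1 of these is no separate check. The most opposite were Mir320, Mir22, Snord7 and Scarna9 (r = -0.93 each), listed at 0 in every library but K15-SKO replicate 3, and Meg3 (r = -0.92, or -0.40 without that library). Klf15 ranked 4495 by r with Arntl (0.33) and 1879 by r with Dbp (0.28).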

How the data were processed

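The authors deposited 1 table of 24033 genes by 8 libraries, and its values are taken here as FPKM. That unit was inferred from the submitters' processing notes, which name STAR, Cufflinks, Cuffdiff and mm10 without versions, since the header gives only sample names. For the annotation release, strand setting, filters and scaling, the answer is the same: not given in the sources used here. Libraries were mapped to genotypes by their labels, with 0 further columns. Nothing states that same-numbered mice are related, and p-values measure the spread between these mice.

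Depth is not given with FPKM. From the lowest values of single-transcript genes longer than 1 kb it was estimated at 7160000 to 20700000 fragments, deepest in MyoCre replicate 2. Of values under 3.5 such units, 26.4% to 59.1% lay within 0.15 of a whole number, so no counts were recovered and no count model was run.

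The 12535 genes averaging 1 FPKM or more entered limma 3.58.1 (R 4.3.3) on the log2(FPKM + 0.5) scale, with a mean trend and robust variances and the genotype alone in the model. A fold change on this scale understates that of low genes. The test was checked on data simulated at the genes' own means and residual SDs, with 200 genes changed. It recovered 54.5% of 2-fold and 86.5% of 4-fold changes, with 3.54% and 3.35% of calls false. Recovery was not computed for the clock genes alone, whose median residual SD was 0.478 against 0.291 over all tested genes. Ratios and correlations used exact permutation tests (Python 3.11.15, scipy 1.17.1), approximate for deviations from the genotype means. Alternatives were pseudocounts of 1 and 0.1, other filters and scalings, library weights, a replicate block and leaving out each library. Median-of-ratios scaling moved the median log2 fold change of all genes from -0.12 to 0.00. The 10 genes and the other lists were chosen with earlier results of these data known. Beside the 10 genes and Klf15, genes named are those of the clock lists, up to 2 per marker list with the highest mean, those most like Arntl or Dbp, and overlapping or sex-linked genes, the last chosen after their values were seen. The glucocorticoid-induced list is named in full, also a choice made after its values were seen. Coordinates are mm10 (GENCODE M21). Start regions are from RefSeq.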

Additional observations from a re-analysis of the deposited data

Results flagged for a closer look

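In 80 groups of 4 values (each clock gene, Klf15 and the 2 ratios, in each genotype), the gap between the most extreme library and its nearest neighbour was compared with the range of the group. It exceeded the 95% limit in 5 groups, where chance at 1 in 20 gives 4. Nr1d1 in K15-SKO replicate 3 was 20.3 FPKM against 35.6 to 37.3 FPKM in the other K15-SKO libraries. Bhlhe40 in K15-SKO replicate 1 was 28.8 FPKM against 19.8 to 20.5 FPKM. Nfil3, a repressor of D-box genes, was 10.2 FPKM in K15-SKO replicate 2 against 6.09 to 6.49 FPKM. Tcap in MyoCre replicate 4 was 1590 FPKM against 3540 to 3690 FPKM. The log2 ratio of Nr1d1 to Arntl in MyoCre replicate 1 was 3.04 against 1.70 to 1.80.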

How the results depend on the processing

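In all 19 alternative fits, 0 of the clock genes that entered the fit were called: all 10 of the set, but 9 with a minimum mean of 5 FPKM, and 22 of the 27 others, but 27 with no filter, 21 without MyoCre replicate 3 and 15 with a minimum mean of 5 FPKM. The number of pairs of clock genes that passed went from 2 to 8 with median-of-ratios scaling, to 0 without K15-SKO replicate 3 and to 0 with both; these 3 alternatives were chosen after seeing the data, and the cause was not tested. With median-of-ratios scaling, whether or not genes listed at 0 in all libraries of a genotype took part, fold changes turned positive for Per1 (0.0327), Per3 (0.0461), Nr1d1 (0.12) and Dbp (0.12). With quantile normalization they were 0.0367, 0.0408, 0.12 and 0.11, and Nr1d1 was 0.0543 with library weights. Leaving out each library in turn gave log2 fold changes from -0.40 to 0.16 for Per1, -0.18 to 0.28 for Per2, -0.27 to 0.0713 for Per3, -0.0752 to 0.35 for Cry2, -0.17 to 0.19 for Nr1d1 and -0.20 to 0.20 for Dbp, all of which changed sign, and 0 calls. It gave -0.81 to -0.14 for Arntl, -0.54 to -0.01 for Clock, -0.28 to -0.02 for Nr1d2 and -0.66 to -0.40 for Bhlhe40. The difference in the log2 ratio of Dbp to Arntl ran from -0.0244 to 0.91 and that of Nr1d1 from 0.33 to 0.89, and r of Arntl from -0.78 to 0.37 with Per1, from -0.47 to 0.65 with Nr1d1 and from -0.0482 to 0.87 with Nr1d2. Same-numbered mice of the 2 genotypes did not deviate together in every pair (r = 0.10, 0.23, 0.00 and 0.28 over all tested genes, with 2 of 4 numbers matching best with their own), so the numbers were not taken as pairs; whether same-numbered mice are related is not given in the labels. With that number as a replicate block, 0 clock genes and 0 other clock genes were called, and the ratio differences of 0.57 had exact permutation p-values of 0.75 (Dbp) and 0.375 (Nr1d1). Within 4 blocks that permutation test cannot give a p under 0.05, so no conclusion is drawn from these 2 values. With 4 mice a genotype, the intervals of all clock genes but Nr1d2 and Bhlhe40 span more than 1 on the log2 scale, and counting error weighs most on Per2, the least abundant of the 10.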
